A study of Mus musculus with 1376 samples.

Results

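Acta2 and Cspg4 are the 2 genes, of 46517 in the count table, that give the reporter mice of this series their name. Both were found by gene symbol, one row each, and are described here over all 1376 single lung cells and over the cell classes that other genes define. The cells came from dissociated lung of 3 mice of the strain ACTA2GFP:CSPG4dsRED, whose name gives a green reporter for Acta2 and a red one for Cspg4. Male mouse 1 (M1) gave 47.5% of the cells from a pair of plates, and male mouse 2 (M2) and female mouse 1 (F1) gave 25.6% and 26.96% from 1 plate each. All 3 mice carry both reporters, no treatment is named, and there is no mouse without reporters among them. The sample labels give ages of 8 to 30 weeks, while the design text of the series gives a narrower range and male mice. The series set out to catalogue murine smooth muscle cells (SMC), as its title says. Single cells were sorted into plates and sequenced by Smart-Seq2, a full-length cDNA method without molecular identifiers. What was gated in the sort is not stated in the sources used, and the gate can set which cells, and thus which levels of both genes, were kept. Plate, sex and mouse cannot be told apart for M2 and F1. The extract protocol names heart while the tissue label says lung. RNA of the reporter transgenes was not analysed here, so every value below is for the mouse's own Acta2 and Cspg4 rows.

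Acta2 encodes smooth muscle alpha-actin, the actin isoform that fills the contractile filaments of smooth muscle. It is also made by myofibroblasts and, at varying levels, by pericytes, the cells wrapped around capillaries. Its transcription is known to depend on serum response factor (SRF), which binds A/T-rich elements called CArG boxes, and on its cofactor myocardin. Cspg4 encodes NG2, a large transmembrane chondroitin sulfate proteoglycan. NG2 binds collagen VI and growth factors and is widely used, together with PDGF receptor beta, to mark mural cells, the collective name for pericytes and vascular smooth muscle.

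The stretches before the transcription starts of both genes are shown because CArG boxes are known to carry the action of SRF on Acta2. They are RefSeq sequence of build GRCm38.p6, 250 bases up to the base before the RefSeq start, 5′ to 3′ on the gene's strand. Acta2 lies on the minus strand at chr19:34255374-34255623 and Cspg4 on the plus strand at chr9:56864854-56865103. The gene starts in GENCODE M21, 34255590 for Acta2 and 56865033 for Cspg4, fall inside these windows. Part of each window, with both CArG-like boxes of Acta2, thus lies within the GENCODE gene span. Capitals mark CArG-like boxes in Acta2 and GC boxes (CCGCCC, on either strand) in Cspg4.
Acta2: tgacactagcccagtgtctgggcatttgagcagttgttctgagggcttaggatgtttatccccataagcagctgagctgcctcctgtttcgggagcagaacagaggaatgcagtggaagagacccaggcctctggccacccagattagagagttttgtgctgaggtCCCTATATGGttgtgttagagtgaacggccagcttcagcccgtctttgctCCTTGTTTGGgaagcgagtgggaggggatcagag
Cspg4: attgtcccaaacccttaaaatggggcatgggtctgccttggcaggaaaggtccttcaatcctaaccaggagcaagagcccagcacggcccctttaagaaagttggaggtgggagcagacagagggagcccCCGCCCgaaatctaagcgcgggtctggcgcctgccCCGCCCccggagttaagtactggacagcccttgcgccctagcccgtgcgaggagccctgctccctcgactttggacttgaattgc
The Acta2 window held 2 CArG-like boxes, CCCTATATGG at -84 to -75 and CCTTGTTTGG at -34 to -25 from the start. A CArG-like box was counted where CC and GG enclosed a run of A and T with at most 1 other letter. The Cspg4 window held none of these and had 2 GC boxes at -120 to -115 and -85 to -80. Of 32851 such windows in the RefSeq table, 8.59% held a CArG-like box and 32.7% a GC box. Of the 20 smooth muscle contractile genes listed for this work that had a window, 6 held a CArG-like box, against 9.78% of all 27025 genes with a window. A GC box was held by 15 of the 20, against 35.4% of all genes. Of the genes most like Acta2, 5 had a window, of which 1 held a CArG-like box and 3 a GC box. A match of letters is a description of the window and not a measured binding site.

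The gene Acta2 (ENSMUSG00000035783) spans chromosome 19, 34241090 to 34255590, with 2196 exonic bases, and Cspg4 (ENSMUSG00000032911) spans chromosome 9, 56865033 to 56899870, with 11931 exonic bases (GENCODE M21 on GRCm38). Acta2 held 1382664 counts over all cells, which ranked it 5 among the 31067 genes with a count and made up 0.390% of all counts. Cspg4 held 79040 counts, ranked 778 and made up 0.0223%. CPM, the count of a gene scaled to the total of the cell or sum, is the level used below. The highest level of Acta2 in a cell was 28494 CPM, in a vascular SMC-like cell of M2. The highest level of Cspg4 was 5625 CPM, in a pericyte-like cell of F1.

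Cells held 50835 to 1074103 counts, with medians of 267272 in M1, 172580 in M2 and 236324 in F1. Cells were clustered on genes that excluded Acta2 and Cspg4 and named from marker lists that left both out, so neither gene placed a cell in its class. This gave 91 pericyte-like and 81 airway SMC-like cells, alveolar myofibroblast-like cells as 7.56% of all cells, vascular SMC-like cells as 46.9%, alveolar fibroblast-like cells as 12.1%, and 66 adventitial fibroblast-like cells. These 6 classes had at least 10 cells in every mouse and were compared. Each cluster in them had 6 to 10 of the 10 markers of its name. A further 67 endothelial-like cells came nearly all from F1 (66) and 63 macrophage-like cells from M1 (58), so both classes have no replicates. Another 92 cells, 86 of them from M1, stayed unnamed and had a median mitochondrial share of 3.86%. Endothelial markers, 9 genes summed, were at 1145 to 2402 CPM in pericyte-like cells, against 360.8 to 737 CPM in vascular SMC-like cells and 18534 CPM in endothelial-like cells. Glial markers, 6 genes summed, were at 6.12 to 808.04 CPM in pericyte-like and 103.1 to 145.3 CPM in alveolar myofibroblast-like cells, against 0.445 to 6.06 CPM in vascular SMC-like and 0.766 to 15.3 CPM in alveolar fibroblast-like cells. Mesothelial markers, 5 genes summed, were at 0.111 to 2.0007 CPM in alveolar myofibroblast-like cells, against 172.9 to 581.9 CPM in alveolar fibroblast-like cells. Sox10, a defining glial gene, and Gfra3 were at 0 in alveolar myofibroblast-like cells, and the other listed glial genes were not. None of the 6 was at 0 in pericyte-like or vascular SMC-like cells. The part of these markers in the results below was not tested.

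Acta2 was present in every class, and the classes fell into 3 tiers. Pericyte-like cells held 2477, 1983 and 2702 CPM in M1, M2 and F1 (2387 ± 367.7, SD, n = 3 mice), from counts summed per class and mouse. Alveolar myofibroblast-like cells held 2379, 2264 and 2303 CPM (2315 ± 58.2). These 2 classes overlapped each other and made the middle tier. The pericyte-like value pools clusters, described below, that lay below and above it in every mouse, so its place depends on their mix. Airway SMC-like cells held 4844, 8048 and 4703 CPM (5865 ± 1892), and vascular SMC-like cells 4973, 9475 and 4864 CPM (6437 ± 2631). The ranges of the 2 muscle classes overlapped, with M2 the highest in both, and lay above every value of the middle tier. Alveolar fibroblast-like cells held 484.2, 522.8 and 344.01 CPM (450.3 ± 94.1) and adventitial fibroblast-like cells 596.7, 201.1 and 231.3 CPM (343.1 ± 220.2). The fibroblast values overlapped each other and formed the lowest tier. Within one gene CPM can be compared between classes, and CPM is a share of a cell's counts, so fewer Acta2 transcripts and more of everything else cannot be told apart. Acta2 counts in the muscle classes rose far less than depth, as described below, so their levels, and the folds and ratios set against them, may be compressed.

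Cspg4 followed another order, led by the mural classes. Pericyte-like cells held 258.4, 374.7 and 797 CPM in M1, M2 and F1 (476.8 ± 283.6), and vascular SMC-like cells 278.4, 327.9 and 391.5 CPM (332.6 ± 56.7). The pericyte-like range enclosed the vascular one, and F1 was the highest in both. Airway SMC-like cells held 115.3, 74.8 and 105.3 CPM (98.5 ± 21.1), below every vascular and pericyte-like class value. Part of the vascular class, the Osr2 cluster described below, overlapped these airway values. Alveolar myofibroblast-like cells held 19.6, 45.1 and 137.8 CPM (67.5 ± 62.2), a range set by F1 at its top. Alveolar fibroblast-like cells held 50.4, 41.4 and 67.1 CPM (52.97 ± 13.04) and adventitial fibroblast-like cells 30.3, 24.3 and 60.4 CPM (38.3 ± 19.3). The airway, myofibroblast and fibroblast classes each overlapped the next in this order.

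**Figure D1:**
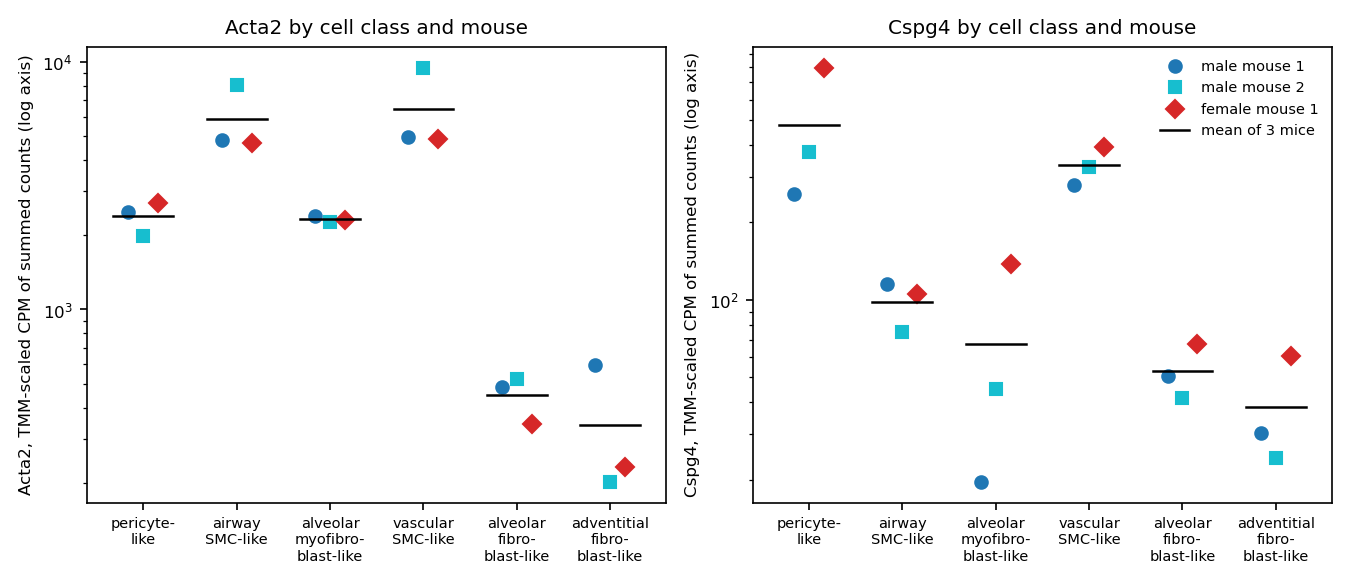
Level of Acta2 (left) and Cspg4 (right) in TMM-scaled CPM of summed counts on a log axis, for 6 cell classes; each point is 1 mouse and the bar the mean of 3 mice. Acta2 shows 3 tiers (muscle, then pericyte-like with alveolar myofibroblast-like, then fibroblasts), while Cspg4 is highest in pericyte-like and vascular SMC-like cells.

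Per exonic base, Acta2 exceeded Cspg4 in every class and mouse. The log2 ratio of the 2 levels in RPKM (CPM per kilobase of exon) was 4.92 ± 0.75 in pericyte-like cells, the lowest of the 6 classes (SD, n = 3 mice). It was 8.32 ± 0.76 in airway SMC-like, 7.99 ± 1.43 in alveolar myofibroblast-like and 6.66 ± 0.61 in vascular SMC-like cells. Both fibroblast classes had 5.54, with SDs of 0.67 in alveolar and 1.18 in adventitial cells.

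The first comparison asked whether the 2 reporter genes separate pericytes from vascular smooth muscle. Acta2 fell in pericyte-like cells, at 2387 ± 367.7 CPM against 6437 ± 2631 CPM in vascular SMC-like cells, with a log2 fold change of -1.39 ± 0.36 (SE, n = 3 mice) and an adjusted p of 0.0497 (edgeR's quasi-likelihood test with Benjamini-Hochberg adjustment). It was lower in 3 of 3 mice. Cspg4 was at 476.8 ± 283.6 CPM against 332.6 ± 56.7 CPM, with a log2 fold change of 0.36 ± 0.43 and an adjusted p of 0.785, higher in 2 of 3 mice, so no difference was shown beyond the spread between mice. Of 16324 genes, 3.15% passed (1.29% higher and 1.87% lower), and the median log2 fold change of all genes tested was -0.26, or -0.12 with DESeq2-style (RLE) size factors. The Acta2 call sits at the threshold. It was lost with RLE size factors (adjusted p = 0.0831), without the mouse as a block (0.0597) and on leaving out M1 (0.0956), M2 (0.319) or F1 (0.169), and the log2 fold change then stayed between -0.93 and -1.70.

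The second comparison set airway against vascular smooth muscle. Acta2 was at 5865 ± 1892 CPM in airway SMC-like cells and 6437 ± 2631 CPM in vascular SMC-like cells (log2 fold change -0.13 ± 0.35, adjusted p = 0.999 by edgeR), which is within the spread between mice. In both classes Acta2 counts rose little with depth, with slopes of 0.38 and 0.33 on the log2 scale and maxima of 1.04 and 1.196 counts per exonic base. If counts were capped there, the levels of the 2 classes would be drawn together, so this comparison does not show that they have like amounts of Acta2 RNA. Cspg4 was at 98.5 ± 21.1 CPM in airway SMC-like and 332.6 ± 56.7 CPM in vascular SMC-like cells, lower in 3 of 3 mice with no overlap of the class sums. The Osr2 cluster within the vascular class, described below, did overlap the airway values. The Cspg4 log2 fold change of -1.72 ± 0.44 missed the threshold with an adjusted p of 0.0807 (edgeR), while 1.3% of 16324 genes passed (0.551% higher and 0.753% lower). It passed with finer clusters (adjusted p = 0.0442), when the fit held the 2 classes alone (0.0450) and with DESeq2 (0.0101).

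The remaining 2 comparisons set alveolar myofibroblast-like cells against muscle and against fibroblasts. Against vascular SMC-like cells, Acta2 fell, at 2315 ± 58.2 against 6437 ± 2631 CPM (log2 fold change -1.45 ± 0.36, adjusted p = 0.0437 by edgeR). Cspg4 fell too, at 67.5 ± 62.2 against 332.6 ± 56.7 CPM (log2 fold change -2.58 ± 0.46, adjusted p = 0.00633 by edgeR). Both were lower in 3 of 3 mice, and 2.74% of 16324 genes passed (1.26% higher and 1.48% lower). Against alveolar fibroblast-like cells, Acta2 rose, at 2315 ± 58.2 against 450.3 ± 94.1 CPM (log2 fold change 2.39 ± 0.37, adjusted p = 0.00206 by edgeR), higher in 3 of 3 mice. Cspg4 showed no difference there beyond the spread between mice, at 67.5 ± 62.2 against 52.97 ± 13.04 CPM (log2 fold change 0.09 ± 0.43, adjusted p = 0.998 by edgeR), and 2.36% of 16324 genes passed (0.858% higher and 1.5% lower). The fall of Acta2 against vascular SMC-like cells lost its call with RLE size factors (adjusted p = 0.0620), without the mouse block (0.0522) and without M1 (0.0995), M2 (0.265) or F1 (0.243). That of Cspg4 lost it without the block (0.0682), without M1 (0.0909) or M2 (0.197), and the rise of Acta2 against alveolar fibroblast-like cells without F1 (0.117).

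Acta2 counts followed the depth of a cell only in part in the muscle classes, where the gene was highest, and in some cells where it was low. In vascular SMC-like cells the 5th and 95th percentiles were 774 and 2199.8 Acta2 counts, with a median of 1642.5 and a maximum of 2627, or 1.196 counts per exonic base. The slope of log2 Acta2 counts on log2 total counts was 1.06 in pericyte-like and 0.84 in alveolar myofibroblast-like cells, where a constant share gives 1. The pericyte-like slope pools clusters of unlike Acta2 level, described below, with median depths of 154192 (Clstn2) and 228171 counts (Col8a1). Within the Clstn2 cluster Acta2 CPM had an r of -0.51 with log2 total counts (-0.76 in F1), and within the Col8a1 cluster -0.02. Airway SMC-like cells had a slope of 0.38 and vascular SMC-like cells one of 0.33. In alveolar fibroblast-like cells the slope was 0.89, 0.87 and 0.34 in M1, M2 and F1. With log2 total counts, Acta2 CPM had an r of -0.47 in adventitial fibroblast-like, -0.53 in endothelial-like and -0.40 in macrophage-like cells. This r was -0.09 in alveolar fibroblast-like, -0.08 in alveolar myofibroblast-like and 0.03 in pericyte-like cells. Vascular SMC-like cells with 50000 to 150000 counts had a median Acta2 level of 12508 CPM (27.1% of the class), those with 150000 to 300000 counts 7289.9 CPM (41.3%) and deeper cells 4637 CPM (31.6%). The CPM of Acta2 in vascular SMC-like cells was thus lower in deeper cells. No source at hand states whether duplicate reads were removed by position, which would cap the counts of a short and abundant transcript, and this was not tested. Under such a cap the Acta2 levels of the muscle classes, their distance from the other classes and their Acta2 to Cspg4 ratios would be understated.

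M2, which had the highest Acta2 CPM in both muscle classes, also had the shallowest vascular SMC-like cells. Their median total was 134726 counts, against 282912 in M1 and 251818 in F1, while their median Acta2 count was 1492.5, against 1804.5 in M1 and 1487 in F1. In vascular SMC-like cells the slope was 0.43 for Actc1, 0.44 for Actb, the cytoplasmic beta-actin, and 0.55 for Tagln. It was 0.74 for Actg1, 0.83 for Actg2, 0.93 for Myh11 and 0.18 for Acta1, which had a median of 6 counts. The maximum of Actc1 there was 1.33 counts per exonic base, above the 1.196 of Acta2. With only cells of 100000 to 300000 counts, a setting added after the data were seen (761 cells), Acta2 was lower in pericyte-like than in vascular SMC-like cells by a log2 fold change of -1.45 ± 0.24 (adjusted p = 0.00542 by edgeR). For alveolar myofibroblast-like cells against vascular SMC-like cells it was -1.68 ± 0.24 (adjusted p = 0.00134 by edgeR). In this setting the pericyte-like sums held only 6 cells of M1 and 9 of M2. The adventitial fibroblast-like sum of M1 held 6, and both classes were thus below the 10 cells per mouse otherwise required. Cspg4 counts in vascular SMC-like cells had a slope of 0.60, and its median CPM was 314.1, 213.5 and 192.5 from the shallowest to the deepest of the same depth ranges.

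**Figure D2:**
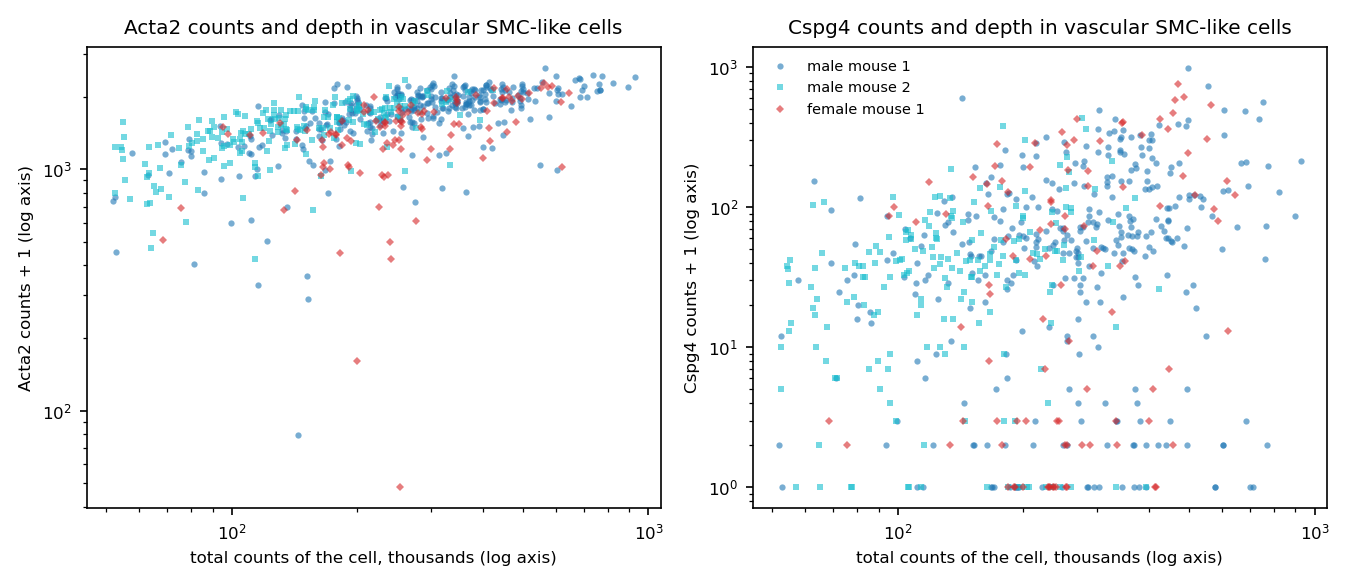
Counts plus 1 of Acta2 (left) and Cspg4 (right) against total counts per cell, both on log axes, for the vascular SMC-like cells; each point is 1 cell, coloured by mouse. Acta2 counts lie in a narrow band that rises slowly with depth, and Cspg4 splits into cells with many counts and cells at or near 0.

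Every one of the 1376 cells had an Acta2 count, and 1078 had a Cspg4 count. The share with a Cspg4 count was 81.3% in M1 (exact 95% binomial interval 78.1% to 84.2%), 71.9% in M2 (66.9% to 76.5%) and 79.2% in F1 (74.8% to 83.3%). Such intervals treat the cells of a mouse as independent draws and cover the sampling of cells within that mouse only. Counts without molecular identifiers are also not independent molecules. Cells of other types had counts too: all 130 endothelial-like and macrophage-like cells had an Acta2 count and 57.7% a Cspg4 count, at a median of 170370 counts per cell. Their median levels were 143.95 CPM for Acta2 and 3.72 CPM for Cspg4. Alveolar myofibroblast-like cells (58.7% with a Cspg4 count, median depth 223202) and alveolar fibroblast-like cells (56.02%, 305379) were near that share, which is read as background. Pericyte-like cells (96.7%, median depth 195025), airway SMC-like cells (80.2%, 255371) and vascular SMC-like cells (90.7%, 230214) stood above it, and adventitial fibroblast-like cells (66.7%, 290814) between.

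Levels above that background were therefore counted, a threshold added after the data were seen. It was the 95th percentile of the endothelial-like and macrophage-like cells, 559.1 CPM for Acta2 and 279.5 CPM for Cspg4. Both genes passed it in 24.7% of all 1376 cells, Acta2 alone in 49.9% (686 cells), Cspg4 alone in 2.18% (30 cells) and neither in 23.3%. Cells above both made up 25.6% of M1, 28.98% of M2 and 19.1% of F1. These shares count the 130 endothelial-like and macrophage-like cells that set the threshold, most of which came from F1 and M1. By its definition they lie mostly below it, which raises the share of neither gene and bears on the differences between mice.

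The pericyte-like class held cells with Cspg4 and little Acta2, and so did other classes. Among its 91 cells, 30 were above both thresholds, 46 above that of Acta2 alone and 11 above that of Cspg4 alone. Those 11 were 2 of 18 cells in M1, 2 of 12 in M2 and 7 of 61 in F1. Airway SMC-like cells were above both in 9 of 81 cells and above Acta2 alone in the other 72. Alveolar myofibroblast-like cells were above both in 6.73% and above Acta2 alone in 82.7%. Of the vascular SMC-like cells, 42.3% were above both, 57.4% above Acta2 alone and 0 above Cspg4 alone, which allows a share of Cspg4 alone of up to 1.05% in M1, 1.88% in M2 and 3.55% in F1 (upper bounds of the exact intervals). In the fibroblast classes neither gene passed in 71.7% of alveolar and 89.4% of adventitial cells. Cspg4 alone passed in 3 of 59, 1 of 65 and 4 of 42 alveolar fibroblast-like cells of M1, M2 and F1. Among the cells that set the threshold it did so in 4 of 58 macrophage-like cells of M1 and 2 of 5 of M2. It also did so in 1 of 66 endothelial-like cells of F1. The 92 unnamed cells were above Acta2 alone in 61 and above both in 19.

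**Figure D3:**
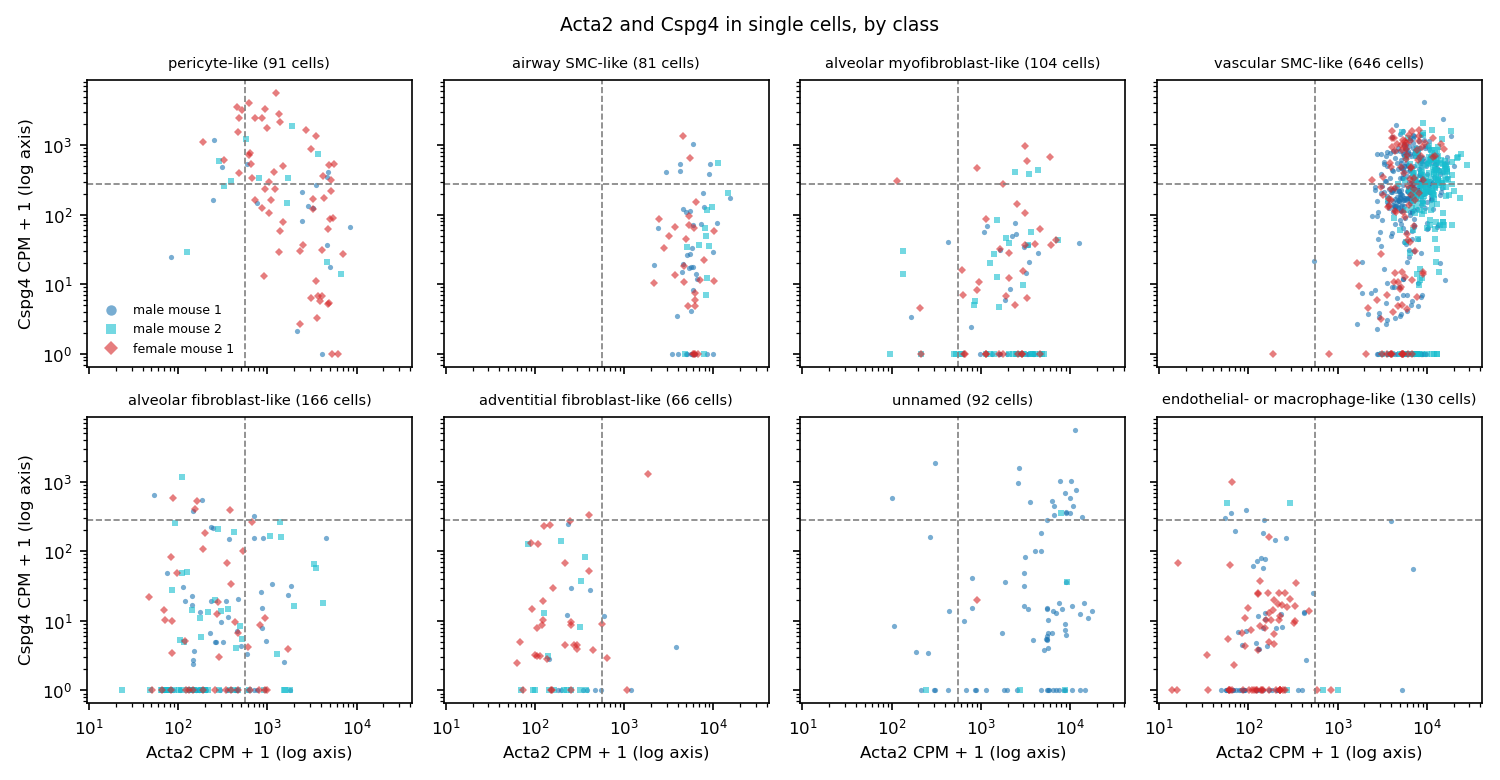
Acta2 (x) and Cspg4 (y) in CPM plus 1 on log axes; each point is 1 cell, coloured by mouse, in panels by class with the endothelial-like and macrophage-like background cells last. Dashed lines mark 559.1 CPM of Acta2 and 279.5 CPM of Cspg4; all but 2 vascular SMC-like cells lie right of the Acta2 line, at Cspg4 levels from 0 upward, and pericyte-like cells spread from high Cspg4 with low Acta2 to the reverse.

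Both mural classes were made of clusters that differed in the 2 genes, given here as a description with no test. The pericyte-like cluster with Clstn2 among its leading genes (46 cells) held 422.4, 1095 and 753 CPM of Acta2 in M1, M2 and F1. The cluster led by Col8a1 (45 cells) held 3633, 4540 and 3825 CPM, so Acta2 was higher in the Col8a1 cluster in every mouse. Cspg4 was at 548.8, 328.7 and 1506 CPM in the Clstn2 cluster and at 120.6, 562.9 and 193.8 CPM in the Col8a1 cluster, with M2, which had 9 and 3 cells in them, in the opposite order. All 11 pericyte-like cells above the Cspg4 threshold alone were in the Clstn2 cluster.

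Among vascular SMC-like cells, one cluster was lowest in both genes within each mouse. The cluster led by Osr2 (30.2% of the class) held 76.4, 27.2 and 156.4 CPM of Cspg4 in M1, M2 and F1. The clusters led by Stac (51.1%) and by Sfrp2 (18.7%) held 432.4, 376.4 and 519.05 CPM and 398.03, 458.1 and 723 CPM. Both ranges lay above that of the Osr2 cluster, and every cell of the Stac and Sfrp2 clusters had a Cspg4 count, against 69.2% in the Osr2 cluster. The 60 vascular SMC-like cells with no Cspg4 count were thus all in the Osr2 cluster. Acta2 was at 4978, 7084 and 4443 CPM in the Osr2 cluster, against 5990, 10306 and 5944 CPM in the Stac and 5678, 9827 and 5317 CPM in the Sfrp2 cluster. The airway SMC-like cluster led by Tacr2 (13 cells, none of F1) had a Cspg4 count in each cell, against 76.5% of the 68 cells led by Npy4r.

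**Figure D4:**
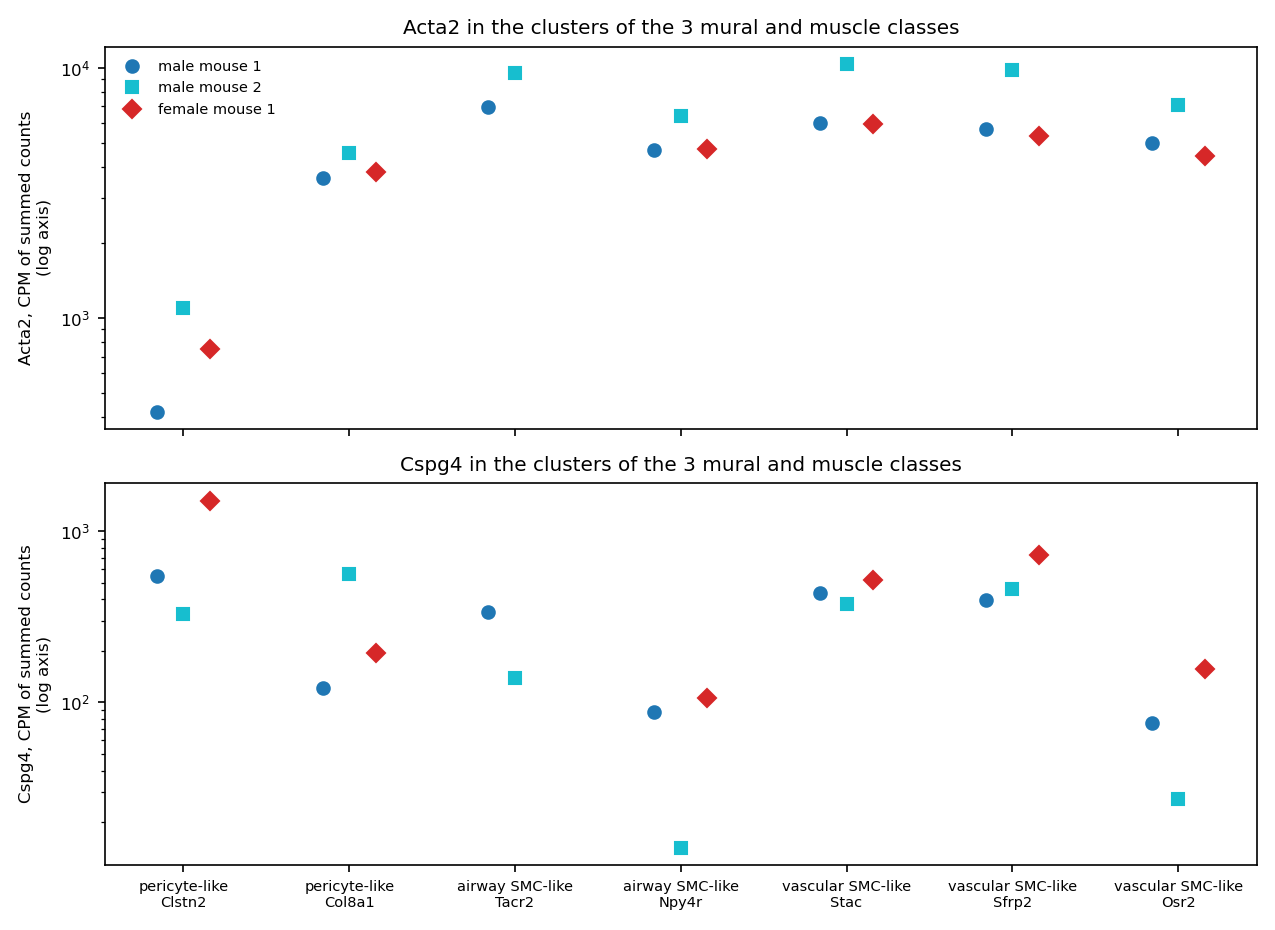
CPM of Acta2 (top) and Cspg4 (bottom) from counts summed per cluster and mouse on log axes, for the clusters of the pericyte-like, airway SMC-like and vascular SMC-like classes, each named by one of its leading genes; each point is 1 mouse. The Clstn2 cluster lies lowest in Acta2, and the Osr2 cluster lies below the other vascular clusters in Cspg4.

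Over single cells the relation of the 2 genes ran in opposite directions in the mural classes, as a description of log2(CPM + 1) with no test. Across the 91 pericyte-like cells Pearson's r was -0.45 and Spearman's rho -0.49, with r of -0.26, -0.20 and -0.59 in M1, M2 and F1. Within the Clstn2 cluster r was 0.11 and rho -0.06, and r was -0.23 in its 31 cells of F1. Within the Col8a1 cluster r was -0.16, with -0.01 in its 12 cells of M1 and -0.11 in its 30 of F1. Across the vascular SMC-like cells r was 0.31 and rho 0.27, with 0.25, 0.36 and 0.43 in the same order of mice. Within the Stac, Osr2 and Sfrp2 clusters r was 0.07, 0.10 and 0.14, and within mouse and cluster it ranged from 0.08 to 0.52. Cells share a plate and a total, and Acta2 CPM had an r of -0.78 with log2 total counts in vascular SMC-like cells. Thinning each cell to 50000 counts gave an r of -0.42 in pericyte-like and 0.33 in vascular SMC-like cells.

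Acta2 belongs to a family of 6 actin genes, and reads can be shared between them. Its coding sequence of 1134 bases was 85.4% identical to skeletal Acta1, 83.8% to enteric smooth muscle Actg2, 82.98% to Actb, 82.5% to cardiac Actc1 and 81.6% to the cytoplasmic gamma-actin Actg1, base by base. The longest exact stretches shared with Acta2 are shown because they are where counting could mix the genes, from the Acta2 transcript of GENCODE M21 on GRCm38, minus strand.
Actg1, at chr19:34243342-34243397: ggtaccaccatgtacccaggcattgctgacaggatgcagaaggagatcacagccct
Actb, at chr19:34243351-34243397: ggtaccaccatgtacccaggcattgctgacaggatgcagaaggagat
Actg2, at chr19:34245055-34245083: gacatcaaggagaagctgtgctatgtagc
They ran over 56 bases for Actg1, 47 for Actb and 29 for Actg2. Of the 1085 windows of 50 bases in the Acta2 coding sequence, 7 also occurred in Actg1 and 0 in the other 4. Read length and the treatment of reads with several matches are not given in the sources used here.

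Among the actins, Actg2 came closest to Acta2 in pattern and differed more between classes. In RPKM, Actg2 was at 212.9, 149.3 and 244.8 in pericyte-like cells of M1, M2 and F1 and at 938, 1308 and 984 in vascular SMC-like cells. It fell in pericyte-like cells (log2 fold change -2.45 ± 0.33, adjusted p = 9.6e-04 by edgeR) and in alveolar myofibroblast-like against vascular SMC-like cells (-1.89 ± 0.32, adjusted p = 0.00458 by edgeR). It rose in alveolar myofibroblast-like against alveolar fibroblast-like cells, at 301.5 ± 125.2 against 6.68 ± 1.81 RPKM (log2 fold change 5.48 ± 0.37, adjusted p = 2.39e-06 by edgeR). Actc1, a naming marker of airway SMC whose test is therefore not independent, was at 175.6 ± 76.98 RPKM in pericyte-like, 1613 ± 1034 in airway SMC-like and 1818 ± 759 in vascular SMC-like cells.

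The cytoplasmic actins Actb and Actg1 passed in none of the 4 comparisons by edgeR, with unadjusted p-values under 0.05 for both in the first and for 1 in the third. Actb was at 1187 ± 240.4 RPKM in pericyte-like and 1523 ± 657.7 in vascular SMC-like cells (log2 fold change -0.30 ± 0.13, adjusted p = 0.266 by edgeR). Actg1 was at 398.5 ± 76.8 and 582.5 ± 200.8 RPKM in the same classes (-0.52 ± 0.16, adjusted p = 0.0934 by edgeR). Acta1 stayed low, at 3.83 ± 2.88 RPKM in pericyte-like and 19.2 ± 18.5 in vascular SMC-like cells. Acta2 was the actin with the highest mean RPKM in airway SMC-like cells (2671 ± 861) and vascular SMC-like cells (2931 ± 1198), and Actb in the other 4 classes.

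**Figure D5:**
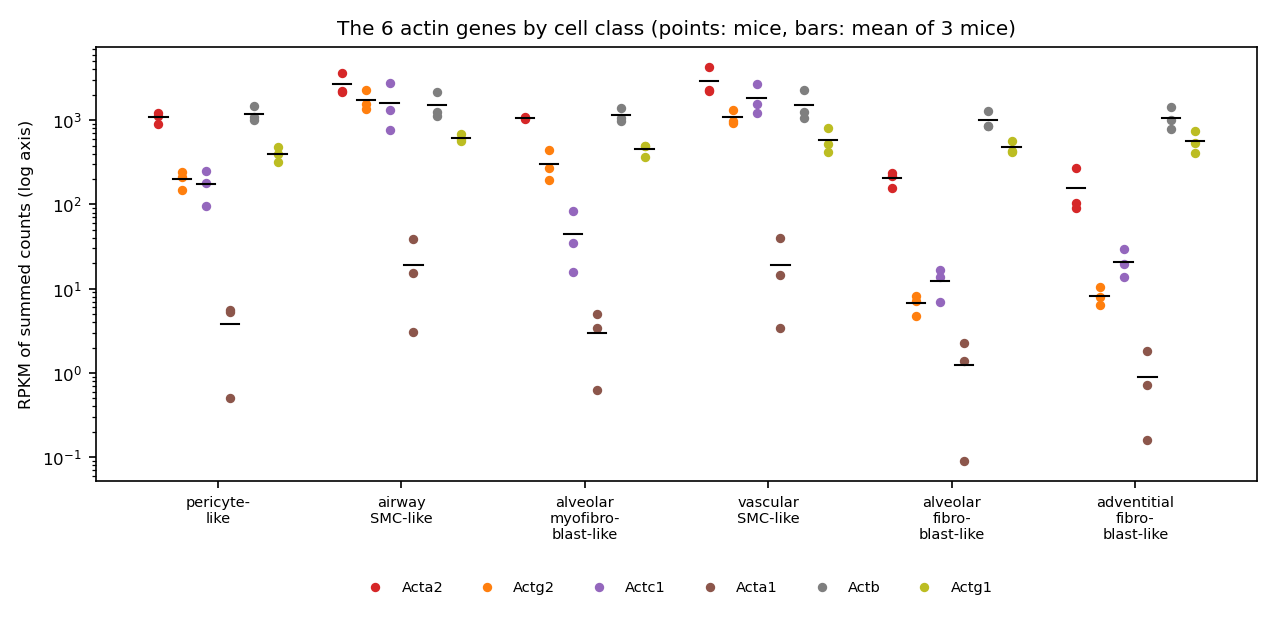
RPKM of the 6 actin genes on a log axis in 6 cell classes; each point is 1 mouse and each bar the mean of 3 mice. Acta2, Actg2 and Actc1 are highest in the muscle classes, while the class means of Actb lie between 999.9 and 1523 RPKM and its points between 792.3 and 2274 RPKM.

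The genes most like each of the 2 in level were ranked over the 18 sums of class and mouse. Among 10408 genes with a mean of at least 10 CPM, centred within mouse, the highest correlations of log2(CPM + 1) with Acta2 were those of Tagln (r = 0.99), Lmod1 (0.98), Actg2 (0.98), Myh11 (0.97), Myl9 (0.96), Cap2 (0.96), Myocd (0.96), Tpm2 (0.94), Lpp (0.94) and St5 (0.94). Tagln encodes transgelin, Lmod1 leiomodin and Myocd the SRF cofactor myocardin. Lmod1 and Myh11 were naming markers, 7 of the 10 were in the part of the genes that clustered the cells, and the sums share mouse, plate and class, so these are descriptions. The highest with Cspg4 were Gprc5c (0.94), Bcam (0.94), Cobll1 (0.93), Tln1 (0.92), Parm1 (0.92), Notch3 (0.92), Itga4 (0.91), Postn (0.91), Ephx3 (0.90) and Gm17276 (0.89). Bcam encodes a laminin-binding adhesion molecule, Itga4 integrin alpha 4, Postn periostin and Notch3 the Notch receptor of mural cells. Notch3 and Postn were naming markers, 5 of the 10 were in the clustering part, and the gene span of Gm17276 overlaps that of Notch3 in part. Whether the reads of Gm17276 and Notch3 can be told apart was not checked. Both lists depended on the mice and the measure. Of the 10 most like Acta2, 3 stayed without M1, 7 without M2, 8 without F1 and 5 with Spearman's rho, and of the 10 most like Cspg4 1 stayed without M1, 7 without M2, 5 without F1 and 4 with rho. No gene stood in both lists, and Acta2 and Cspg4 had an r of 0.63 and a rho of 0.66 with each other.

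The 2 sets differed in airway SMC-like cells, where Cspg4 was low and Acta2 high. Of the 10 genes most like Cspg4, 5 fell in airway against vascular SMC-like cells (edgeR), where 0.753% of all genes fell. Gprc5c, an orphan receptor, was at 5.33 ± 5.55 against 99.96 ± 30.7 CPM (adjusted p = 0.0217), and Bcam at 67.02 ± 26.2 against 628.7 ± 244.7 CPM (adjusted p = 0.0465). Itga4 was at 0.741 ± 0.646 against 61.4 ± 23.04 CPM (adjusted p = 0.0239), and Notch3 (6.80 ± 7.92 against 652.3 ± 422.997 CPM) and Gm17276 fell too. None of the 10 genes most like Acta2 passed there (edgeR; 1 at an unadjusted p under 0.05), with log2 fold changes of -0.57 for Lmod1 to 0.70 for Actg2. As likeness was measured over the same sums, this is a description of the 2 sets and no separate support.

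Of the listed smooth muscle contractile and cytoskeletal genes, 23 tested, those that passed moved in the direction of Acta2. In pericyte-like cells relative to vascular SMC-like ones 13 fell and 0 rose, where 1.87% of all genes fell, among them 10 that were no naming markers, with a median log2 fold change of -1.32 against -0.26 for all genes. Tpm2, a tropomyosin, was at 682 ± 154.7 against 2028 ± 473.6 CPM (adjusted p = 0.00467 by edgeR). Pdlim3, an actinin-binding protein, was at 10.1 ± 13.96 against 259.6 ± 42.7 CPM (adjusted p = 0.0129), and Tagln at 663 ± 184.8 against 2261 ± 703 CPM (adjusted p = 0.0353). In airway against vascular SMC-like cells 0 of the 23 passed in either direction by edgeR or DESeq2, near the 1.3% of all genes (3 at an unadjusted p under 0.05 by edgeR; median -0.13 against -0.21). In alveolar myofibroblast-like cells 16 fell against vascular SMC-like cells, where 1.48% of all genes fell (median -1.57 against -0.17), and 9 rose against alveolar fibroblast-like cells, where 0.858% of all genes rose (median 0.60 against -0.07). Of the 16, 12 were no naming markers, and of the 9, 5 were none. Across the alternatives the count lower in pericyte-like cells ran from 1, without M1, to 13, with 4 without M2 and 3 without F1. Calls over all genes fell there too, from 3.15% to 0.463% without M1, 0.724% without M2 and 1.28% without F1. The 16 and 9 became 5 and 4 without M1, 9 and 9 without M2, and 9 and 4 without F1. Without 1 mouse, 0.421% to 1.0004% of all genes were called in the third comparison, where 2.74% were with all mice. In the last comparison it was 0.577% to 0.864%, against 2.36%. A fall in a list count is thus not shown to be particular to the list.

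Of the listed regulators of Acta2 transcription, 24 tested, 2, 2, 3 and 4 passed in the 4 comparisons, where 3.15%, 1.3%, 2.74% and 2.36% of all genes passed. Their medians were 0.27, 0.01, -0.35 and -0.28 on the log2 scale in the same order. In pericyte-like cells relative to vascular SMC-like ones Gata6, a GATA factor, fell to 0.284 ± 0.361 CPM against 55.3 ± 10.9 CPM (adjusted p = 0.00999 by edgeR). Tcf21, a naming marker of alveolar fibroblasts, rose to 158.9 ± 18.4 against 32.3 ± 8.89 CPM (adjusted p = 0.0115). Myocd was at 233.1 ± 55.9 against 587.5 ± 163.6 CPM, lower in 3 of 3 mice, and did not pass (log2 fold change -1.34 ± 0.69, adjusted p = 0.371 by edgeR). Myocd did rise in alveolar myofibroblast-like against alveolar fibroblast-like cells, at 354.1 ± 209.7 against 29.8 ± 27.6 CPM (log2 fold change 3.69 ± 0.76, adjusted p = 0.0172 by edgeR). In airway against vascular SMC-like cells Notch3 and Tcf21, both naming markers, fell and no other listed regulator passed. Against vascular SMC-like cells, Prrx1, Notch3 and Tcf21 fell in alveolar myofibroblast-like cells. Against alveolar fibroblast-like cells Tcf21, Notch3 and the TGF-beta receptor gene Tgfbr2 fell and Myocd alone rose. The 2 calls in pericyte-like cells relative to vascular SMC-like ones numbered 1 without M1 and 0 without M2 or F1 (edgeR). The 4 against alveolar fibroblast-like cells numbered 1 without M1, 3 without M2 and 2 without F1. Without 1 mouse the share of all genes called fell as well, as given above for the contractile genes.

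Of the listed ligands and partners of NG2, 27 tested, 3 rose and 4 fell in pericyte-like cells relative to vascular SMC-like ones, where Cspg4 itself did not pass. In the order of the comparisons 7, 3, 2 and 3 passed, against 3.15%, 1.3%, 2.74% and 2.36% of all genes. The list's median was 0.29 there, 0.13 in airway SMC-like and 0.25 in alveolar myofibroblast-like cells relative to vascular SMC-like ones, and 0.09 in the last comparison. The 3 and 4 became 2 and 0 without M1, 2 and 1 without M2, and 3 and 3 without F1. Plat, tissue plasminogen activator, rose to 521.6 ± 222.8 against 46.6 ± 22.3 CPM (adjusted p = 9.2e-05 by edgeR). The collagen VI chain gene Col6a3 rose to 599.3 ± 189.5 against 230.3 ± 136.9 CPM (adjusted p = 0.0194), and Pdgfrb, a naming marker, to 3066 ± 1592 against 590.2 ± 323.9 CPM. Fgfr1, a fibroblast growth factor receptor, fell to 13.8 ± 13.9 against 196.8 ± 49.4 CPM (adjusted p = 0.00221 by edgeR). Its ligand Fgf2 fell to 0.887 ± 0.0795 against 24.2 ± 7.19 CPM (adjusted p = 0.0114), and Itga9 and Cd9 fell as well. In airway against vascular SMC-like cells Plat rose, at 171.6 ± 42.2 against 46.6 ± 22.3 CPM (adjusted p = 0.00866 by edgeR), and Itga4 and Pdgfrb fell. In alveolar myofibroblast-like cells Plat and Col6a3 rose against vascular SMC-like cells. Against alveolar fibroblast-like cells Cd9 rose there and Pdgfra and Lama2 fell. The 3 calls of airway SMC-like cells numbered 1 without M1, 2 without M2 and 1 without F1, and the last 3 numbered 1, 2 and 2 in the same order. The 2 of alveolar myofibroblast-like against vascular SMC-like cells numbered 1 without M1 and 1 without M2. Without 1 mouse 0.302% to 0.567% of all genes were called in airway against vascular SMC-like cells, against 1.3% with all mice. The shares in the other comparisons fell as given above, so no loss is shown to be particular to this list.

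The next list held other core proteins of chondroitin sulfate proteoglycans and enzymes that build the sugar chain. Of its 29 genes tested 2, 0, 4 and 0 passed in the 4 comparisons, against 3.15%, 1.3%, 2.74% and 2.36% of all genes. At these shares the 0 of the second and the last says nothing about the list. Cd44, a hyaluronan receptor, rose in pericyte-like cells relative to vascular SMC-like ones (352.1 ± 141.8 against 102.3 ± 17.5 CPM, adjusted p = 0.0196 by edgeR) and versican, Vcan, fell (0.470 ± 0.539 against 30.9 ± 17.9 CPM, adjusted p = 0.0114). In airway against vascular SMC-like cells the list had 5 genes at an unadjusted p under 0.05 by edgeR and 2 passed by DESeq2. In alveolar myofibroblast-like against vascular SMC-like cells the sulfotransferase gene Chst15, the core protein gene Dcn and Cd44 rose and Ptprz1 fell, and 0 passed by edgeR against alveolar fibroblast-like cells (4 at an unadjusted p under 0.05, 1 by DESeq2). The list's medians were -0.22, -0.25, 0.21 and 0.05 in the 4 comparisons. Of 10 listed mural markers, 5 of them naming markers and with medians of 1.71, -2.90, -3.22 and 1.05, Higd1b, Vtn, Ndufa4l2 and Cox4i2 rose in pericyte-like cells. Over the 4 comparisons 4, 4, 5 and 2 of the 10 passed, against the same shares of all genes. Of these calls, 1 in the first, 2 in the third and 0 in the other comparisons were no naming markers. The counts are thus not independent of the naming. Vtn, vitronectin and no naming marker, was at 721 ± 294.6 against 8.05 ± 2.06 CPM (adjusted p = 8.4e-04 by edgeR). In airway against vascular SMC-like cells Kcnj8 rose and Notch3, Ndufa4l2 and Cox4i2 fell. Kcnj8 also rose in alveolar myofibroblast-like cells relative to both classes they were set against, and Notch3 fell in both comparisons. Mcam, Ndufa4l2 and Vtn fell there relative to vascular SMC-like cells. Leaving out M1, M2 or F1 gave 1, 2 and 3 mural markers higher in pericyte-like cells and 2, 3 and 3 called in airway SMC-like cells. Alveolar myofibroblast-like cells had 2, 3 and 4 called against vascular SMC-like and 0, 0 and 1 against alveolar fibroblast-like cells. For the core protein and enzyme genes it gave 0, 0 and 2 calls in pericyte-like cells against vascular SMC-like cells. In alveolar myofibroblast-like cells against the same class it gave 0, 2 and 3. The share of all genes called fell in these fits as well, so no loss is shown to be particular to either list.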

How the data were processed

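The authors deposited raw read counts per Ensembl gene and cell (whole numbers, per the file headers and the values), and 0 columns were left unused. The submitters' processing notes name GRCm38 and mm10 as builds and, as tools, bcl2fastq, Subread, featureCounts, Bowtie2 and Bowtie. Roles, versions, strand and duplicate handling are not given in the sources used here. Symbols and lengths came from GENCODE M21.

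Genes were split at random into 2 parts (seed 1), with Acta2 and Cspg4 in the same part. Clusters were built from the other part's 1000 most variable genes (30 principal components, 15 neighbours, Leiden resolution 1; leidenalg 0.10.2, igraph 0.11.9, scikit-learn 1.9.0), and the parts were then swapped to test the remaining genes. Between both clusterings the adjusted Rand index was 0.693, and 97.1% of cells named in both had the same name. No doublet caller was run, and no cell was removed. M1 gave 653 cells (plates 045s and 046s), M2 352 (131s) and F1 371 (505s), of which 646 were vascular SMC-like, 166 alveolar fibroblast-like and 104 alveolar myofibroblast-like. Sums of the counts of each class in each mouse were tested with edgeR 4.0.16 (TMM, filterByExpr, quasi-likelihood, two-sided, Benjamini-Hochberg over 16324 genes, calls at adjusted p under 0.05), after a test on simulated data. In the order of the report edgeR called 515, 213, 448 and 385 genes and DESeq2 1785, 972, 1304 and 1282. The mouse was a block, since the labels give the same 3 animals for every class. Sums of the same mouse deviated together from their class means (median r of 0.13 over 45 pairs, lowest 0.04). The median between mice was -0.09, which is no separate support, since deviations from a class mean cancel out over its mice. A standard error is the log2 fold change divided by the root of F. Cells are not replicates, and n is the mouse.

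Acta2, Cspg4, the gene lists, markers and tests were chosen with earlier results of these data known. Genes named are both members, all actins, the 10 most like each member and, of each list, up to 3 genes with the largest called change in each direction in pericyte-like and airway SMC-like against vascular SMC-like cells. Beyond that rule, listed genes that passed were named without values, and Tpm2, Tagln, Myocd, Notch3 and Itga4 stand in the lists of likeness. Alternatives were other scaling, filters, clusterings, plates, mice left out and DESeq2 1.42.0.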

Additional observations from a re-analysis of the deposited data

How the results depend on the processing

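Of the alternative values for 19 results, 45 moved, 22 lost a call, 3 gained one and 3 turned their sign, and the others did none of these. Leaving out 1 mouse gave log2 fold changes of Acta2 from -1.70 to -0.93 in pericyte-like cells relative to vascular SMC-like ones, -0.21 to -0.02 in airway SMC-like, and -1.64 to -1.04 in alveolar myofibroblast-like cells, and 2.21 to 2.53 in these relative to alveolar fibroblast-like cells. For Cspg4, in the same order, they ran from 0.05 to 0.58, -2.08 to -1.48, -3.25 to -2.18 and -0.54 to 0.63. In the last comparison the sign of Cspg4 turned to -0.54 without F1, to -0.998 with cells of 100000 to 300000 counts and to -0.039 with the 2 classes alone in the fit. The cause was not tested.

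The Acta2 log2 fold change of pericyte-like over vascular SMC-like cells lost its call with RLE size factors (-1.26), without the replicate block (-1.43), at Leiden resolution 0.5 (-1.39), with the stricter cell filter (-1.35), with plate 046s alone for M1 (-1.29) and with the 2 classes alone (-1.33). That of alveolar myofibroblast-like over vascular SMC-like cells lost it with RLE size factors (-1.39), without the block (-1.48), with the stricter filter (-1.41), plate 046s alone (-1.39) and the 2 classes alone (-1.40). Cspg4 there lost it without the block (-2.30) and with the 2 classes alone (-2.73). Cspg4 of airway over vascular SMC-like cells gained a call at Leiden resolution 2 (-1.98), with the 2 classes alone (-1.75) and with DESeq2 (-1.63).

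The share of tested genes called, in the order of the 4 comparisons, was 3.15%, 1.3%, 2.74% and 2.36%. It was 10.9%, 5.95%, 7.99% and 7.85% with DESeq2, 1.42%, 0.633%, 1.197% and 1.09% without a low-count filter, where more genes were tested, and 1.43%, 0.575%, 1.37% and 1.35% with cells of 100000 to 300000 counts. Without the replicate block the first 3 were 1.72%, 0.815% and 1.64%, and the block moved the last by less than 1.5 times. Without 1 mouse they ran from 0.463% to 1.28%, 0.302% to 0.567%, 0.421% to 1.0004% and 0.577% to 0.864%. Plate 045s alone gave 1.61% in the third and the 2 classes alone 1.73% in the first comparison.

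As means of the 3 mice, the share of cells with Acta2 was 99.6% after thinning to 50000 counts and 73.1% above the background threshold. That with Cspg4 was 77.5% with a count, 56.9% with at least 5, 62.9% after thinning and 26.9% above the threshold, and 75.6% to 80.3% without 1 mouse. Both genes had 56.9%, 62.8% and 24.6% under these settings, and neither gene 0.270% after thinning and 24.6% above the threshold. All shares above the threshold count the cells that set it. Of the 10 genes most like Acta2, 5 remained with Spearman's rho and 3 to 8 without 1 mouse (3 without M1). For Cspg4 these were 4 and 1 to 7, with 1 without M1 and 5 without F1. The r of both genes over vascular SMC-like cells was 0.43 in F1 on its own. Depth and the counts that other cell types carry limit what low Cspg4 values can show.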
